A study of Mus musculus with 89 samples.

Results

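The genes followed here are 9 parts and targets of the LIF-Stat3 pathway: the receptor chains Lifr, Il6st and Osmr, the kinase Jak1, the transcription factor Stat3, the feedback inhibitor Socs3, and Pim1, Pim3 and Junb, which are known to be switched on by the pathway. They were taken by gene symbol from a table of 54146 genes, and each of the 9 symbols had 1 entry. All 9 passed the minimum for testing in FCS/LIF, 20 counts in every replicate of at least 1 state, together with 15636 genes in all. In 2i/LIF 8 of them passed, among 14355 genes, and Osmr did not.

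The study removed the orphan nuclear receptors Esrrb and Nr5a2 from mouse embryonic stem (ES) cells and measured polyadenylated RNA by stranded paired-end sequencing. Its 20 libraries form 8 groups, 4 states in each of 2 media, with 2 replicates per state in FCS/LIF and 3 in 2i/LIF. All groups come from the EKOiE line, whose own Esrrb gene is knocked out and whose Esrrb comes from a transgene that doxycycline (Dox) induces. EKOiE NrKO cells carry in addition deletions in the exon of Nr5a2 that codes for the first part of its DNA-binding domain, on both alleles.

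EKOiE cells kept with Dox at 1 µg/ml are called +E+N, and the same cells without Dox for 2 days are called −E. EKOiE NrKO cells with Dox are called −N, and EKOiE NrKO cells without Dox for 2 days are called −E−N. Both media contained LIF at 10 ng/ml. FCS/LIF also held 10% foetal calf serum, and 2i/LIF held the Mek inhibitor PD0325901 at 1 µM and the Gsk3 inhibitor CHIR99021 at 3 µM. NrKO cells grew from single-cell clones. The supplementary methods describe transcripts of the disrupted gene in clone 4 by RNA-seq, while no label ties a library to a clone, so loss of Nr5a2 and properties of a clone cannot be told apart. The labels tie no culture in 1 medium to a culture in the other, so medium and culture batch cannot be told apart. The labels give EKOiE as the line of every library and the state of Nr5a2 as a tag of its own.

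LIF is a secreted cytokine that binds a receptor made of Lifr and Il6st, the latter better known as gp130. Binding brings the attached Jak1 kinases together, and they phosphorylate Stat3, which enters the nucleus and activates genes including Socs3, whose product blocks the receptor and Jak1. Mouse ES cells kept in serum depend on this signal to stay undifferentiated. Because Stat3 is switched on by phosphorylation, the amount of its RNA does not report its activity, and none of the values here measure phosphorylation.

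Promoter sequence was read for all 9 genes, as 11 windows from 250 bases before to 50 bases after a RefSeq transcription start (assembly GRCm38, the mm10 build). The windows were searched on both strands for the Stat patterns TTCNNNGAA and TTCCNGGAA and for AGGTCA, the core of the sites that orphan receptors such as Esrrb and Nr5a2 bind. The study reports that Esrrb prefers the T of this core, while Nr5a2 more strongly prefers a C in its place. The form with C, AGGCCA, was not searched for. The 3 stretches of 30 bases that hold a match are shown because they belong to 3 genes whose RNA levels are compared across the states, with the match in capitals and the rest in lower case, 5′ to 3′ on the strand of the gene.
Lifr, chr15:7129322-7129351, plus strand: cggTGACCTtgcaaggctggccgcgcgacc
Pim3, chr15:88862013-88862042, plus strand: agccggagagTGACCTtcctcagcgcggcc
Socs3, chr11:117969501-117969530, minus strand: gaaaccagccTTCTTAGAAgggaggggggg
In Lifr and Pim3 the capitals are AGGTCA read on the opposite strand, at positions -247 and -171 relative to the start, and in both the next base makes the longer AAGGTCA. In Socs3 the capitals are TTCNNNGAA at position -154, and this pattern reads the same on both strands. Of 32851 mouse windows of the same length, 16.3% held AGGTCA, 4.72% held AAGGTCA, 8.3% held TTCNNNGAA and 1.15% held TTCCNGGAA. The pattern TTCCNGGAA was not in any of the 11 windows. A match describes letters in this window and is not a measurement of binding. The Lifr windows begin at chr15:7129322 and chr15:7140292, inside the annotated span of the gene, which begins at chr15:7090614. The Socs3 window also lies inside the span of its gene. Which transcription start these cells use was not tested.

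The libraries held 36514172 to 45443379 counts in FCS/LIF and 26653035 to 32526534 in 2i/LIF. Esrrb stood at 277 and 359 CPM (counts scaled to a library total of 1000000 after TMM normalisation) in +E+N against 75.4 and 66.3 in −E in FCS/LIF. In 2i/LIF it stood at 509 to 600 CPM in +E+N and 372 to 436 in −E, which the test did not call different. In −E−N it stood at 28.9 to 31.2 CPM in FCS/LIF and 103 to 171 in 2i/LIF. Nr5a2 counts in −N were 25.96 and 27.7 CPM against 36.8 and 40.7 in +E+N in FCS/LIF, and 63.4 to 79.0 against 60.4 to 79.3 in 2i/LIF. In −E, Nr5a2 stood at 20.0 and 19.6 CPM in FCS/LIF and at 41.3 to 51.6 in 2i/LIF. Against +E+N this was called lower in FCS/LIF (log2 fold change -0.98, adjusted p = 0.000133 by edgeR). It was not called in 2i/LIF (-0.59, adjusted p = 0.129 by edgeR). The part of lower Nr5a2 RNA in the −E results was not tested. Gene-level counts do not separate the transgene from the disrupted Esrrb locus, nor the deleted Nr5a2 exon from the rest of that gene, so they are a limited check of the labels. All 8 ES cell markers listed (Pou5f1, Sox2, Nanog and others) were above 1 CPM in every group, and their summed level in −E−N was below that of +E+N cells, at 2429 to 2620 against 4655 to 5026 CPM in FCS/LIF and 2005 to 2656 against 4964 to 5297 in 2i/LIF. In FCS/LIF the summed level of 6 trophectoderm markers was 241 to 339 CPM in −E−N (6 of 6 above 1 CPM) and 71.6 to 84.1 in +E+N (5 of 6), that of 6 fibroblast markers 82.1 to 93.3 and 22.8 to 23.3, and that of 7 primitive endoderm markers 55.2 to 58.1 and 28.3 to 35.7. Dab2 made up most of the last rise, from a mean of 13.0 to 38.1 CPM, while Gata4, Gata6, Sox17 and Sox7 had lower means in −E−N. Acta2 made up most of the fibroblast rise, from a mean of 15.4 to 75.9 CPM, while Thy1 fell from 5.48 to 3.57. Krt7 made up most of the trophectoderm rise, from a mean of 50.4 to 203.6 CPM, and all 6 of these markers had higher means in −E−N. In 2i/LIF the fibroblast markers stayed at or below 4.08 CPM in every library, the trophectoderm markers were 65.4 to 91.6 CPM in −E−N (4 of 6 above 1 CPM) and 12.3 to 15.0 in +E+N (3 of 6), and the primitive endoderm markers 11.4 to 14.1 and 5.20 to 8.44. Eomes went against the other trophectoderm markers there, from a mean of 9.58 to 2.51 CPM. Cdx2 made up most of the trophectoderm rise in 2i/LIF, from a mean of 1.42 to 47.4 CPM. Of the primitive endoderm markers Foxa2 had the largest increase, from 0.73 to 6.42 CPM, and Gata4, Gata6, Sox7 and Dab2 had lower means in −E−N. Of 4 endothelial genes the sum was 123 to 128 CPM in FCS/LIF −E−N and 101 to 132 in +E+N, and 76.7 to 138 and 168 to 180 in 2i/LIF. The FCS/LIF sums hide opposite moves from +E+N to −E−N. Mean Cdh5 went from 5.73 to 26.9 CPM and Tek from 38.0 to 52.2. Mean Pecam1 went from 70.7 to 44.9 CPM and Kdr from 2.11 to 1.24. Pecam1 made up most of the 2i/LIF sums, at means of 96.1 CPM in −E−N and 166.7 in +E+N. No marker was at 0 in all libraries of either −E−N group. The part of these markers in the results on the 9 genes was not tested, and in bulk samples fewer cells of a type and less RNA per cell cannot be told apart. In 2i/LIF, replicate 3 of −E−N stood apart from the other 2. In +E+N, −E and −N the replicate 1 library stood apart from replicates 2 and 3. Results in 2i/LIF are therefore also given without replicate 3 of −E−N, or without replicate 1 of every state, where that changed a call.

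Between genes, levels can be compared only per length, as the TPM values that the authors deposited. In +E+N cells in FCS/LIF, Pim3 was the highest of the 9 at 105.35 ± 0.806 TPM, followed by Socs3 at 56.4 ± 8.91 and Pim1 at 32.3 ± 2.26 (SD, n = 2). Stat3 and Junb stood at 27.1 and 26.9 TPM with overlapping libraries, and Lifr, Jak1 and Il6st between 10.7 and 16.1 TPM. In 2i/LIF the order again began with Pim3, Socs3 and Pim1, at 77.0 ± 8.18, 66.1 ± 14.7 and 56.7 ± 2.08 TPM (SD, n = 3), where neighbours in the order overlapped. Osmr, the receptor chain that pairs with Il6st for oncostatin M, was the lowest in both media, at 0.12 TPM in FCS/LIF and 0.06 in 2i/LIF.

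**Figure D1:**
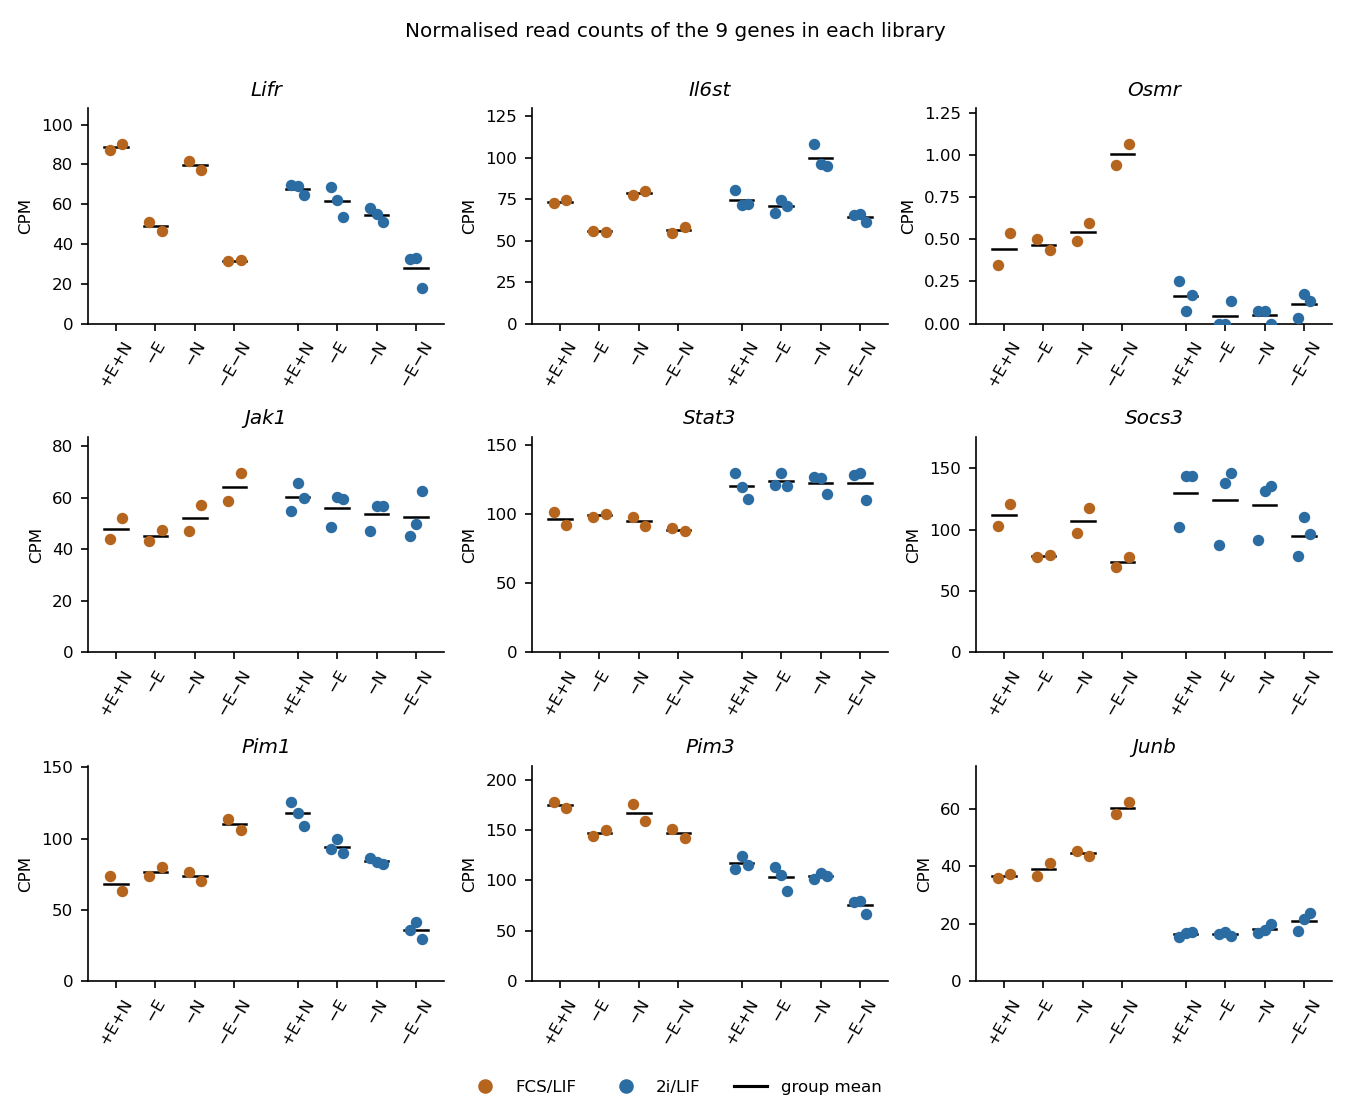
Level of each of the 9 genes in every library, in CPM (vertical axes starting at 0), by state in FCS/LIF (brown, 2 libraries per state) and 2i/LIF (blue, 3 per state). Black bars are group means. Lifr was lowest in −E−N in both media, and Pim1 was highest of the FCS/LIF states but lowest of the 2i/LIF states in −E−N.

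Lifr RNA was lower in both media in cells without both receptors, and in FCS/LIF also in −E cells, where Nr5a2 RNA also fell. Lifr (ENSMUSG00000054263, chr15:7090614-7197489, plus strand) codes for the chain that binds LIF itself. In FCS/LIF its level was 87.0 and 90.2 CPM in +E+N cells, 51.2 and 46.6 in −E, 81.9 and 77.3 in −N cells, and 31.4 and 32.0 in −E−N. The groups did not overlap, and the order ran from +E+N through −N and −E down to −E−N.
A gene is called changed below when its adjusted p was under 0.01 and its fold change over 1.5. Against +E+N in FCS/LIF, the log2 fold change of Lifr was -0.87 in −E (standard error 0.0651, Benjamini-Hochberg adjusted p = 6.49e-05 in the quasi-likelihood test of edgeR). Lifr was the 1 called member of 9 in −E, where 5.76% of 15636 genes were (3.23% higher and 2.53% lower). With both receptors lost the log2 fold change was -1.47 (standard error 0.0667, adjusted p = 1.61e-06 by the same edgeR test), and with only Nr5a2 lost it was -0.17 (adjusted p = 0.229 by edgeR). These 3 comparisons share the +E+N libraries.

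In 2i/LIF, Lifr stood at 69.6, 69.2 and 64.7 CPM in +E+N cells, at 68.5, 62.2 and 53.5 in −E, at 57.8, 54.8 and 50.8 in −N cells, and at 32.5, 32.7 and 18.0 in −E−N. The single losses lay close to +E+N, −E overlapping it and −N not, and the −E−N libraries lay below all others. Against +E+N, the log2 fold change of −E−N cells was -1.30 (standard error 0.171, adjusted p = 7.54e-05 by edgeR), and without replicate 3 of −E−N it was -1.08. For the single losses, −E and −N, it was -0.14 and -0.34 (edgeR adjusted p = 0.703 and 0.232). Comparing −E−N with −N, the step that removes Esrrb from cells already without Nr5a2, gave -0.96 in 2i/LIF and -1.30 in FCS/LIF (edgeR adjusted p = 0.00227 and 5.8e-06). Without replicate 2 of −N the first of these had an adjusted p of 0.0105 by edgeR and was not called, and limma on log2(TPM + 1) gave -0.85 (adjusted p = 0.0377) and no call. Comparing −E−N with −E gave -1.17 in 2i/LIF and -0.60 in FCS/LIF (edgeR adjusted p = 0.00031 and 0.000891).

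The response of Lifr to loss of Esrrb alone, taken as FCS/LIF minus 2i/LIF, differed by -0.71 on the log2 scale, which did not pass the test (standard error 0.228, adjusted p = 0.101 by edgeR). It passed with no filter on low counts and without replicate 3 of 2i/LIF −E−N (adjusted p = 4.19e-05 and 0.00257 by edgeR), while limma on log2(TPM + 1) gave -0.13 (adjusted p = 0.892). For the double loss the difference between the media was -0.14 (95% interval -0.62 to 0.35), and limma on log2(TPM + 1) turned its direction, at 0.55 (adjusted p = 0.325). On the TPM scale the Lifr change in FCS/LIF was smaller. Lifr stood at 12.8 and 19.4 TPM in +E+N and at 12.9 and 11.3 in −E, so the groups overlapped, and at 7.11 and 10.1 in −E−N. On log2(TPM + 1) limma gave -0.36 in −E and -0.82 in −E−N (adjusted p = 0.284 and 0.0174), neither of them called, and it also called no change from −N or −E to −E−N (-0.68 and -0.46, adjusted p = 0.0491 and 0.19). TPM divides each count by an estimated transcript length, which CPM does not, and the cause of the difference was not tested. In 2i/LIF limma gave -1.37 for −E−N (adjusted p = 0.00124), a call.

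Il6st (ENSMUSG00000021756, chr13:112464070-112510086, plus strand), the signalling chain shared by the receptors of this cytokine family, was not called against +E+N in either medium. In FCS/LIF it stood at 72.6 and 74.2 CPM in +E+N cells, 55.8 and 55.3 in −E, 77.4 and 80.1 in −N cells, and 54.7 and 57.9 in −E−N. Both states without Esrrb lay below both states with it, without overlap. The log2 fold change was -0.41 in −E and -0.37 in −E−N (adjusted p = 0.00168 and 0.00095 by edgeR), within the fold change limit, so neither was called.
In 2i/LIF, Il6st was highest in −N, at 108.1, 96.4 and 95.1 CPM, against 80.2, 71.2 and 71.8 in +E+N cells, 66.5, 74.5 and 70.8 in −E, and 65.5, 65.9 and 61.4 in −E−N cells. Its log2 fold change in −N was 0.40 (adjusted p = 0.00282 by edgeR), also within the limit. From −N to −E−N it fell by 0.62 on the log2 scale and was called (standard error 0.0681, adjusted p = 9.39e-05 by edgeR). Without replicate 1 of −N this estimate was -0.57, within the fold change limit.

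Osmr (ENSMUSG00000022146) was close to absent from the libraries. It had 13 to 43 counts per library in FCS/LIF, 0.347 to 1.06 CPM, and 0 to 8 counts in 2i/LIF. In FCS/LIF −E−N the 2 libraries held 0.942 and 1.06 CPM, above the other 6, with a log2 fold change of 1.18 against +E+N that was not called (standard error 0.304, adjusted p = 0.012 by edgeR). It was 0.00884 with no filter on low counts, which would be a call. The 2 FCS/LIF +E+N libraries held 13 and 23 counts.

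Jak1 and Stat3, the kinase and the transcription factor, were not called in any of the 10 comparisons between states. Jak1 (ENSMUSG00000028530, chr4:101152367-101265282, minus strand) stood at 44.0 and 52.0 CPM in +E+N cells, 43.2 and 47.4 in −E, 47.0 and 57.3 in −N cells, and 58.7 and 69.6 in −E−N in FCS/LIF. The −E−N libraries lay above the rest, with a log2 fold change of 0.43 against +E+N (standard error 0.125, adjusted p = 0.0195 by edgeR). In 2i/LIF the 12 libraries lay between 45.2 and 65.7 CPM with overlap between every pair of states, and the −E−N estimate was -0.20 (adjusted p = 0.242 by edgeR). The difference between the media in the response to the double loss was 0.67 (95% interval 0.24 to 1.11, adjusted p = 0.0257 by edgeR), short of the threshold. It passed without replicate 3 of 2i/LIF −E−N, at 0.82 (adjusted p = 0.00511 by edgeR), and with no filter on low counts, at 0.62 (0.000269), and in the other fits that left out 1 library the adjusted p ran up to 0.149.

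Stat3 (ENSMUSG00000004040, chr11:100885098-100939540, minus strand) had the narrowest range of log2 fold changes between states of the 8 members tested in both media, from -0.13 to 0.05. It stood at 101.3 and 91.8 CPM in +E+N cells, 98.1 and 100.2 in −E, 97.9 and 91.4 in −N cells, and 90.1 and 87.5 in −E−N in FCS/LIF, where the −E−N libraries were the lowest. In 2i/LIF all 12 libraries lay between 110.1 and 129.7 CPM, and each state overlapped the others. The lowest adjusted p between states was 0.172 by edgeR. In −E−N against +E+N the 95% intervals were -0.25 to 0.04 in FCS/LIF and -0.14 to 0.18 in 2i/LIF. Between the media, every 2i/LIF library lay above every FCS/LIF library, and in +E+N cells the log2 difference was 0.37 (adjusted p = 0.000784 by edgeR), within the fold change limit.

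**Figure D2:**
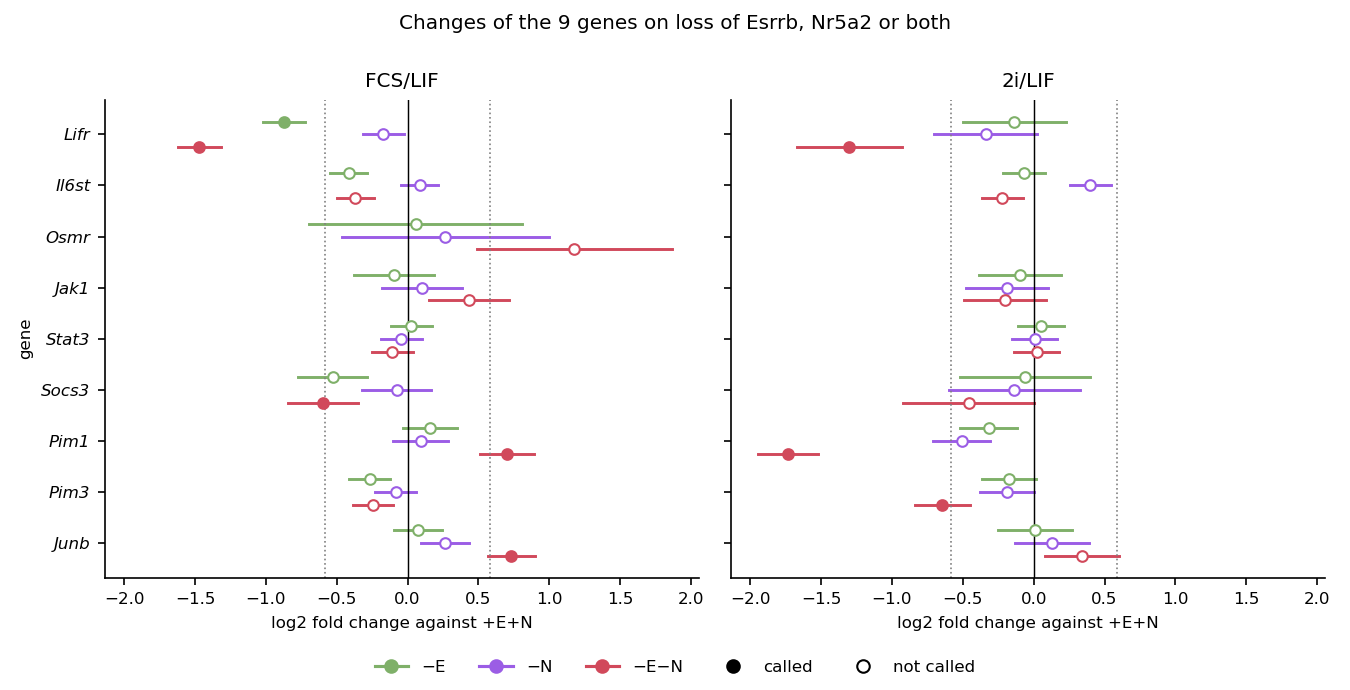
Log2 fold change against +E+N (horizontal axis) of the 9 genes in −E, −N and −E−N, in FCS/LIF (left) and 2i/LIF (right). Lines are 95% intervals of the edgeR estimates, filled points are called, open points are not, dotted lines mark the fold change limit of 1.5, and Osmr was not tested in 2i/LIF. The Pim1 estimates for −E−N lie on opposite sides of 0, at 0.70 and -1.73.

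Socs3 (ENSMUSG00000053113, chr11:117966079-117970047, minus strand), the feedback inhibitor, fell in FCS/LIF −E−N. In that medium its libraries held 103.0 and 120.8 CPM in +E+N cells, 77.4 and 79.4 in −E, 97.2 and 117.4 in −N cells, and 69.3 and 77.4 in −E−N. The states without Esrrb did not overlap those with it, while −E and −E−N overlapped each other. Against +E+N, the log2 fold change of −E−N cells was -0.60 (standard error 0.108, adjusted p = 0.00207 by edgeR) and was called. For −E it was -0.53 (standard error 0.108, adjusted p = 0.010 by edgeR, just under the threshold), within the fold change limit and so not called. Without +E+N replicate 1 it was -0.64 and called (adjusted p = 0.00913 by edgeR). The −E−N call rests on thin margins, since it was lost without −E−N replicate 1 (adjusted p = 0.017 by edgeR) and without +E+N replicate 2 (0.0108), and on log2(TPM + 1) limma gave -0.42 (0.0284).

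In 2i/LIF, Socs3 stood at 102.1, 143.6 and 144.2 CPM in +E+N cells, 87.8, 137.8 and 146.4 in −E, 91.9, 132.0 and 136.0 in −N cells, and 78.5, 110.2 and 97.0 in −E−N. The library numbered 1 was the lowest of its state in all 4 states, and all states overlapped. The −E−N estimate was -0.46 (standard error 0.214, adjusted p = 0.104 by edgeR). With the replicates numbered 2 and 3 alone, an alternative chosen after the data were seen, it was -0.49 with an adjusted p of 0.000669 by edgeR, within the fold change limit. What the libraries numbered 1 share is not in the labels, and its part in these values was not tested.

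Pim1 moved in opposite directions in the 2 media when both receptors were lost. Pim1 (ENSMUSG00000024014, chr17:29490753-29496112, plus strand) codes for a serine/threonine kinase of the survival-promoting Pim family. In FCS/LIF it stood at 73.6 and 63.1 CPM in +E+N cells, 74.0 and 79.9 in −E, 76.8 and 70.5 in −N cells, and 114.1 and 106.2 in −E−N. The 2 −E−N libraries lay above the other 6. Against +E+N, the log2 fold change of −E−N cells was 0.70 (standard error 0.0846, adjusted p = 0.00024 by edgeR), against 0.16 for −E and 0.09 for −N (adjusted p = 0.227 and 0.659 by edgeR). Against −N it was 0.61 and called (adjusted p = 0.000993 by edgeR), but not without −E−N replicate 1 (0.53, adjusted p = 0.014) or −N replicate 2 (0.56, adjusted p = 0.00557). Against −E it was 0.54, within the fold change limit (adjusted p = 0.00335 by edgeR).

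In 2i/LIF, Pim1 stood at 126.0, 118.3 and 109.0 CPM in +E+N cells, 92.4, 99.6 and 89.9 in −E, 86.7, 83.5 and 82.3 in −N cells, and 35.9, 41.4 and 29.7 in −E−N. None of the 4 states overlapped another, and the levels ran down in that order. Against +E+N, the log2 fold change of −E−N cells was -1.73 (standard error 0.0967, adjusted p = 1.2e-07 by edgeR), the largest size among the 9 genes in either medium. The single losses gave -0.32 for −E and -0.51 for −N (adjusted p = 0.0686 and 0.00473 by edgeR), neither past both thresholds. From −N to −E−N it was -1.23 and from −E to −E−N -1.42 (adjusted p = 1.04e-05 and 9.63e-07 by edgeR).

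The difference between the media was tested directly. The Pim1 response to the double loss was 2.47 log2 units higher in FCS/LIF than in 2i/LIF (standard error 0.147, 95% interval 2.16 to 2.78, adjusted p = 4.91e-08 by edgeR), and over the alternatives and left-out libraries the estimate stayed between 2.36 and 2.6. Pim1 was the 1 member of 9 called in that test, in which 13.2% of 16147 genes were called. With the replicate number added to the fit as a block, Jak1, Junb and Pim3 were called as well (adjusted p = 0.000144, 0.0086 and 0.00338 by edgeR). The labels do not say that a number marks a shared batch. For the single losses the differences were 0.50 and 0.61 (adjusted p = 0.0694 and 0.0297 by edgeR), and no member was called by edgeR in either test, where 1.06% and 0.743% of genes were. Only with the replicate block added was Pim1 called by edgeR on all libraries and with the same filter, in each of these tests. At an unadjusted p under 0.05 there were 3 members for −E and 2 for −N, and DESeq2 called 0 and 1 and limma 0 and 0. The −N difference of Pim1 passed without replicate 3 of 2i/LIF −E−N (0.61, adjusted p = 0.00786 by edgeR), by DESeq2 (0.00457) and with no filter on low counts (0.000691). The −E difference of Pim1 also passed with no filter on low counts. For Pim3 the estimate for the double loss was 0.44, which did not pass the test (adjusted p = 0.0173 by edgeR). Without replicate 3 of 2i/LIF −E−N it was 0.37 (adjusted p = 0.0344 by edgeR), while DESeq2 and the fit without replicate 3 of 2i/LIF −E passed (adjusted p = 0.00826 and 0.00752).

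Whether the double loss differed from the sum of the single losses was tested as an interaction. In 2i/LIF the fall of Pim1 exceeded that sum, with an interaction of -0.91 (standard error 0.133, adjusted p = 0.00733 by edgeR), the 1 member called of 8, where 0.307% of genes were. The Il6st interaction was -0.55 (adjusted p = 0.0181 by edgeR), not called, but DESeq2 and edgeR with no filter on low counts called it (adjusted p = 3.5e-05 and 0.00693). Over all genes DESeq2 called 303 interactions here and edgeR 44. The replicate block in edgeR called Il6st and Lifr as well as Pim1. The Pim1 call is fragile. It was lost in 10 of the 12 fits that left out 1 library, although the estimate stayed between -1.02 and -0.80 and the adjusted p between 0.00394 and 0.0277 by edgeR. It was kept without replicate 2 and without replicate 3 of −E−N. On log2(TPM + 1) limma gave -0.83 (adjusted p = 0.0223) and no call. In FCS/LIF no member passed the interaction test by edgeR, DESeq2 or limma, against 0.0320% of genes by edgeR, and 4 of 9 had an unadjusted p under 0.05. The Pim1 interaction there was 0.45 (adjusted p = 0.314 by edgeR, and 0.00706 with no filter on low counts), and the Lifr interactions were -0.43 in FCS/LIF and -0.83 in 2i/LIF (adjusted p = 0.204 and 0.128).

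Pim3 (ENSMUSG00000035828, chr15:88862186-88865726, plus strand), a second kinase of the family, fell in 2i/LIF −E−N. There it stood at 78.9, 79.6 and 67.0 CPM, against 111.5, 124.0 and 115.1 in +E+N cells, 113.4, 105.6 and 89.9 in −E, and 101.4, 106.9 and 104.3 in −N. The −E−N libraries lay below the other 9, and the log2 fold change was -0.65 (standard error 0.0892, adjusted p = 0.000109 by edgeR). Without replicate 3 of −E−N it was -0.58, and by limma on log2(TPM + 1) -0.56, both within the fold change limit. In FCS/LIF, Pim3 stood at 178.2 and 172.2 CPM in +E+N cells, 175.6 and 158.9 in −N, 143.8 and 149.9 in −E, and 151.6 and 141.8 in −E−N. The states without Esrrb again lay below those with it, by -0.27 and -0.24 on the log2 scale against +E+N (adjusted p = 0.0189 and 0.0124 by edgeR), and were not called.

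Junb (ENSMUSG00000052837, chr8:84974484-84978718, minus strand), a subunit of the AP-1 transcription factor, rose in FCS/LIF −E−N. It stood at 36.0 and 37.3 CPM in +E+N cells, 36.7 and 41.3 in −E, 45.5 and 43.6 in −N cells, and 58.2 and 62.5 in −E−N. The −E−N libraries lay above the other 6, with a log2 fold change of 0.73 against +E+N (standard error 0.0739, adjusted p = 9.1e-05 by edgeR) and of 0.66 against −E (0.000904). The latter call was lost without −E replicate 1 or −E−N replicate 2, where the adjusted p was 0.0197 and 0.016 by edgeR. The same 2 fits also lost the fall of Lifr from −E to −E−N, which was -0.60 with all libraries (adjusted p = 0.000891 by edgeR).
In 2i/LIF the levels of Junb were lower and closer together, at 15.2, 16.9 and 17.2 CPM in +E+N cells, 16.6, 17.0 and 15.8 in −E, 16.9, 17.9 and 20.0 in −N cells, and 17.5, 21.6 and 23.7 in −E−N. The −E−N estimate was 0.34 (adjusted p = 0.037 by edgeR), and the difference in response between the media was 0.43 (adjusted p = 0.0529), so neither passed. This difference passed with the replicate block (adjusted p = 0.0086 by edgeR).

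Against +E+N of the same medium, the called members lay in −E−N, apart from Lifr in FCS/LIF −E. In FCS/LIF −E−N, 4 of 9 members were called (Pim1 and Junb higher, Lifr and Socs3 lower) where 18.8% of 15636 genes were (12.4% higher and 6.40% lower), and the median log2 fold change of the 9 was -0.11 against 0.00 for all genes. In 2i/LIF −E−N, 3 of 8 were called (Lifr, Pim1 and Pim3, all lower) where 18.6% of 14355 genes were (9.06% higher and 9.56% lower), with medians of -0.34 and 0.01. From −N to −E−N, 2 of 9 were called in FCS/LIF, where 10.1% of genes were, and 3 of 8 in 2i/LIF, where 6.76% were. From −E to −E−N, 2 of 9 and 2 of 8 were called, where 5.05% and 13.1% of genes were.
In the remaining 3 comparisons with +E+N no member was called. For FCS/LIF −N, 0.173% of genes were called, 2 of 9 members had an unadjusted p under 0.05, and DESeq2 and limma also called 0 members. For 2i/LIF −E and −N, 1.55% and 3.65% of genes were called, 1 and 2 of 8 members had an unadjusted p under 0.05, and DESeq2 and limma called 0.

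The media themselves differed for Pim1 and Junb in cells with both receptors. Against FCS/LIF, +E+N cells in 2i/LIF had more Pim1 (0.84, standard error 0.104, adjusted p = 3.03e-06 by edgeR) and less Junb (-1.11, standard error 0.108, adjusted p = 1.75e-07). These were 2 of 9 members called, where 34.7% of 16147 genes were (17.2% higher in 2i/LIF). The difference of Pim3 was -0.53 (adjusted p = 5.78e-05 by edgeR), within the fold change limit, and that of Lifr -0.33 (adjusted p = 0.0809 by edgeR).

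A wider list of 44 genes held the other ligands, receptor chains, Jak and Stat proteins, inhibitors and LIF-responsive genes of this cytokine family. Among its 9 LIF-responsive genes, the pluripotency factors Klf4 and Tfcp2l1 fell in −E−N in both media. Klf4 stood at 65.8 to 67.7 CPM in +E+N and 6.85 to 7.45 in −E−N in FCS/LIF, a log2 fold change of -3.21 (adjusted p = 1.25e-07 by edgeR), and at 99.3 to 120.9 and 28.9 to 34.7 in 2i/LIF, a change of -1.77 (adjusted p = 2.54e-06 by edgeR). Tfcp2l1 changed by -2.30 in FCS/LIF and -0.85 in 2i/LIF (adjusted p = 2.43e-07 and 0.000292 by edgeR). Both had already fallen in FCS/LIF −E, by 2.19 and 2.22 on the log2 scale.
Gbx2, a homeobox transcription factor, went the other way in 2i/LIF. It stood at 42.2 to 50.9 CPM in +E+N cells, 61.1 to 84.5 in −E, 83.1 to 88.9 in −N and 165.9 to 182.8 in −E−N, and was called higher in all 3 states, by 0.67, 0.88 and 1.95 on the log2 scale. The −E call was lost by limma on log2(TPM + 1) (0.58, adjusted p = 0.0205), with the replicates numbered 2 and 3 alone (0.76, adjusted p = 0.0145 by edgeR), and in 4 fits that left out 1 library. In FCS/LIF it lay between 16.7 and 25.5 CPM in every library and was not called against +E+N, and the response to the double loss differed between the media by -2.21 (adjusted p = 1.51e-07 by edgeR). Pim2, the remaining kinase of the Pim family, rose in 2i/LIF −E−N by 1.32 (adjusted p = 3.84e-05 by edgeR), from 11.4 to 13.9 CPM in +E+N to 24.0 to 41.3 CPM, where Pim1 and Pim3 fell. Klf5 fell there by 1.03 on the log2 scale, and in FCS/LIF −E−N Fos rose by 1.36 while Bcl3 fell by 0.91.

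Receptor chains, ligands and kinases of the wider list also changed in −E−N. In FCS/LIF the receptor chains Cntfr and Il11ra1 rose by 1.92 and 0.80 and the kinase Jak2 by 1.38, while the kinase Jak3 fell by 0.69 and Stat4 by 0.68 on the log2 scale. In 2i/LIF, Il11ra1 rose by 1.27, and Il6ra, the receptor chain for interleukin 6, fell by 1.15 and Jak3 by 1.14. Lif itself rose in 2i/LIF −E−N by 0.88 (adjusted p = 0.000874 by edgeR), from a mean of 6.26 to 11.6 CPM, as did Ctf1, the ligand cardiotrophin 1, by 1.00. Osm, the ligand oncostatin M, stood at 4.22 to 14.2 CPM in 2i/LIF +E+N and 0.168 to 0.428 in −E−N, and was called lower (adjusted p = 0.000266 by edgeR).
Of the inhibitors and phosphatases, Ptpn6 rose in all 3 states of 2i/LIF, by 0.67 with −E, 0.69 with −N and 1.23 with −E−N. On log2(TPM + 1) limma called it in −E−N but not in −E or −N (0.59 and 0.64, adjusted p = 0.0539 and 0.0265). Leaving out 1 library lost the −E and −N calls of edgeR in 4 and 3 fits. With the replicates numbered 2 and 3 alone the −N estimate was 0.57 (adjusted p = 0.00356 by edgeR), within the fold change limit and so not called. Ptprj rose in −E−N in both media, by 0.68 and 0.69, and Pias2 fell in 2i/LIF −E−N by 0.89 on the log2 scale. In all, 5 of 42 tested genes of the list were called in FCS/LIF −E (2 higher, 3 lower), where 5.76% of all genes were, and 10 in −E−N (5 higher, 5 lower), where 18.8% were. In 2i/LIF 2 of 41 were called for −E, 2 for −N and 14 for −E−N (7 higher, 7 lower), where 1.55%, 3.65% and 18.6% of all genes were.
Some calls of the list depended on the tool or on 1 library. On log2(TPM + 1) limma did not call Bcl3 in FCS/LIF −E, Il11ra1, Jak3, Stat4 and Ptprj in FCS/LIF −E−N, or Ctf1 and Ptprj in 2i/LIF −E−N. At least 1 fit that left out 1 library lost Bcl3, Cntfr and Pim2 in FCS/LIF −E, Il11ra1 and Ptprj in FCS/LIF −E−N, and Ctf1 and Ptprj in 2i/LIF −E−N. In FCS/LIF −N, edgeR, DESeq2 and limma called 0 genes of the list, and 10 had an unadjusted p under 0.05. The list's median log2 fold change in −E−N was 0.17 for FCS/LIF and 0.06 for 2i/LIF, against 0.00 and 0.01 for all genes.

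**Figure D3:**
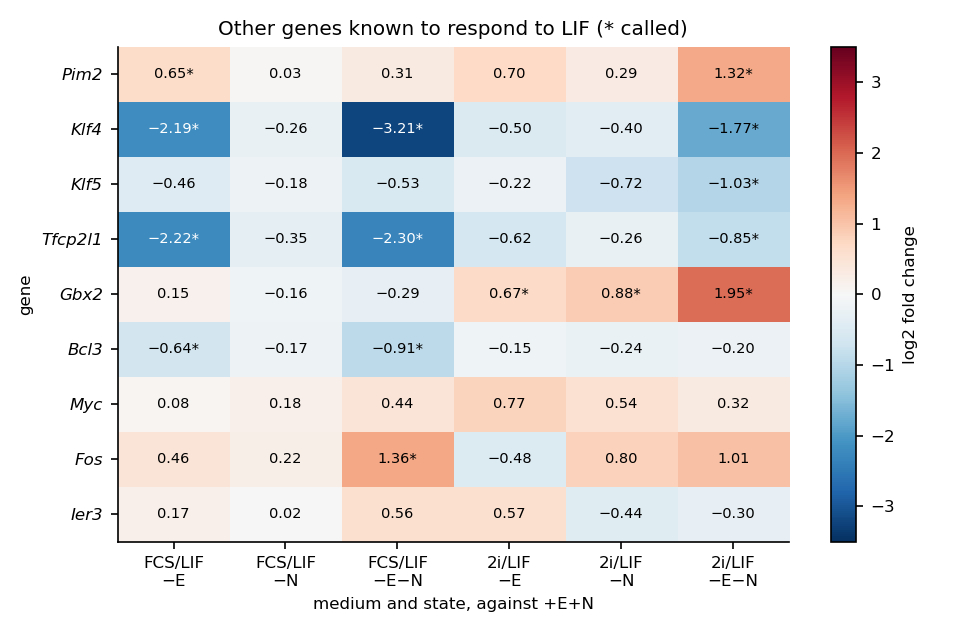
Log2 fold change against +E+N of the 9 LIF-responsive genes of the wider list, by medium and state, with red for higher and blue for lower. A star marks a call. Klf4 and Tfcp2l1 were called lower in −E−N in both media, at -3.21 and -2.30 in FCS/LIF, and Gbx2 was called higher in all 3 states of 2i/LIF but in none of FCS/LIF.

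**Figure D4:**
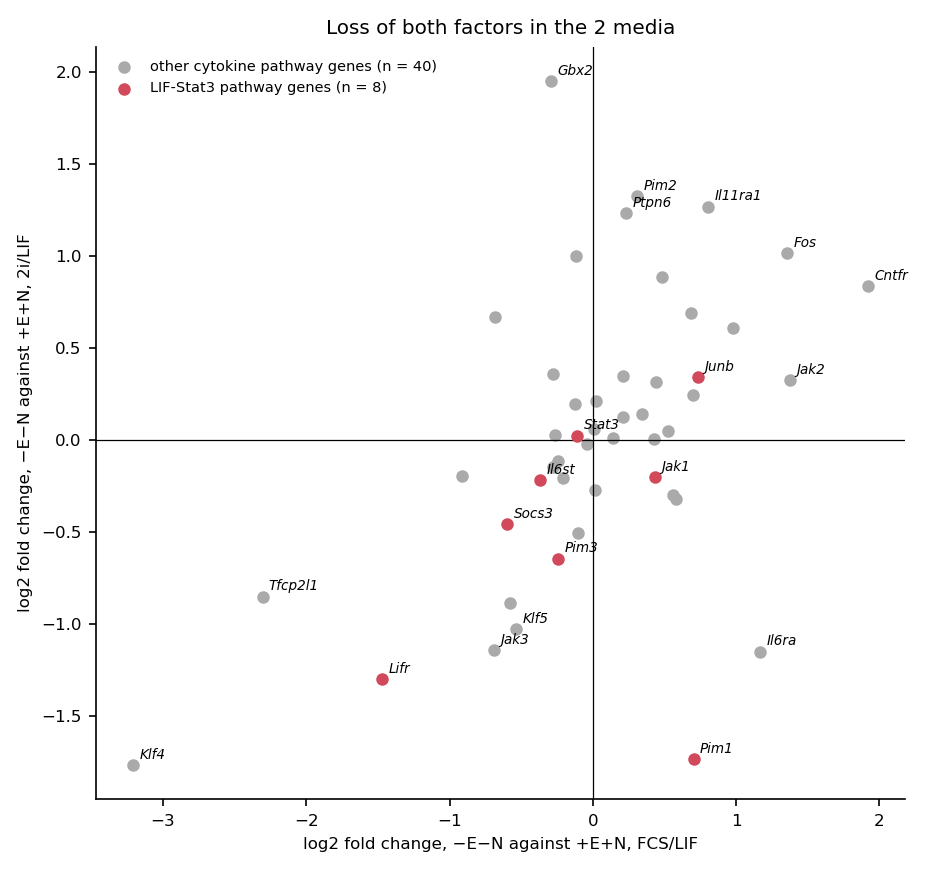
Log2 fold change of −E−N against +E+N in FCS/LIF (horizontal) and in 2i/LIF (vertical) for the 8 members (red) and 40 genes of the wider list (grey) tested in both media. Lifr lies at the lower left, at -1.47 and -1.30, and Pim1 at the lower right, at 0.70 and -1.73.

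In +E+N cells 22 of 43 genes of the wider list were called between the media, 16 of them higher in 2i/LIF, where 34.7% of all genes were called and 17.2% were higher. The Stat genes Stat2, Stat5a, Stat5b and Stat6 were higher in 2i/LIF by 1.60 to 1.98 on the log2 scale, and Stat4 was lower, at -1.38. The 3 other Jak kinases were also higher there, Jak3 by 1.86, Jak2 by 1.09 and Tyk2 by 0.59. Tyk2 lay close to the fold change limit. Its estimate was within that limit by DESeq2 and with the DESeq2 size factors in edgeR (0.56 in each). The same held with no filter on low counts (0.54), by limma on log2(TPM + 1) (0.53), and in several fits that left out 1 library. On log2(TPM + 1) limma gave 0.64 for Stat5a (adjusted p = 0.0208), not a call. Pim2 and Myc were lower in 2i/LIF, at -3.84 and -3.00, with Pim2 at a mean of 193.8 CPM in FCS/LIF and 13.0 in 2i/LIF.

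The genes whose levels ran most like those of 3 members over the 20 libraries were found by Pearson correlation of log2 CPM after centring within each medium, among 9199 other genes above 10 CPM on average. For Lifr these were Pif1, Sept1 and Prps1 (r = 0.971, 0.969 and 0.966). For Stat3 they were Tomm34, Mdn1 and Srsf6 (r = 0.897, 0.888 and 0.873), and for Socs3 Pfkp, Manba and Slc9b1 (r = 0.929, 0.923 and 0.91). Libraries of a group share their state, so these values are descriptions.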

How the data were processed

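Polyadenylated RNA was sequenced from 20 ES cell libraries, and the authors deposited expected counts and TPM values per gene. The expected (estimated) counts and the TPM values were made by the authors with STAR and RSEM on the mm10 build, with versions not given in the sources used here. Each table held 54238 features, of which 92 ERCC spike-in features had 0 counts and were left out. Expected counts were rounded to whole numbers and tested by the quasi-likelihood F-test of edgeR 4.0.16 (R 4.3.3) after TMM normalisation, with 1 fit of the 4 states per medium and 1 fit of all 20 libraries for differences between the media. Genes with at least 20 counts in every replicate of at least 1 state were tested. Calls required a Benjamini-Hochberg adjusted p under 0.01 and a fold change over 1.5, and for interactions and differences between responses the adjusted p alone. All p-values were adjusted over all genes tested. The fit across all libraries shares 1 estimate of the spread per gene.

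The named genes were every member, most called genes of the wider list, and the 3 genes most alike to Lifr, Stat3 and Socs3. No values are given for 4 called genes of the list. These are Pias4 and Cish (+E+N cells between the media), Socs1 (2i/LIF −E−N against −N) and Ptpn11 (response to −E−N between the media). The members and lists were chosen with earlier results of these data known. The study describes the replicates as independent experiments, while the labels do not say what libraries of the same number share. Total counts of 26653035 to 45443379 per library set the counting precision. Alternatives were DESeq2 1.42.0, its size factors in edgeR, testing every gene with 1 count or more, a replicate block, no fold change limit, limma 3.58.1 on log2-transformed TPM (pseudocounts of 1 and 0.1), each library left out in turn, and, chosen after seeing the data, the 2i/LIF libraries numbered 2 and 3 alone. Promoter windows and their sequences came from RefSeq (GRCm38.p6), and gene coordinates from the GENCODE vM21 annotation of the same build. The motif AAGGTCA was added after the sequences were seen. The testing scripts were first tested on simulated data.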

Additional observations from a re-analysis of the deposited data

Results flagged for a closer look

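The Pim1 response to loss of both receptors differed between the media, which was tested as a difference of responses. It was 2.47 on the log2 scale (FCS/LIF minus 2i/LIF). In FCS/LIF both −E−N libraries lay above every +E+N library and in 2i/LIF all 3 lay below. In 2i/LIF the effect of losing Esrrb on Pim1 also differed between cells with and without Nr5a2, by -0.91 on the log2 scale, and this call was lost in 10 of the 12 fits that left out 1 library.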

How the results depend on the processing

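The counts below are of members called. The reported counts were 1 for FCS/LIF −E, 4 for FCS/LIF −E−N, 2 each for FCS/LIF −E−N against −N and against −E, and 3 for 2i/LIF −E−N. By limma on log2(TPM + 1) the FCS/LIF counts became 0, 2, 1 and 1 in that order, and on log2(TPM + 0.1) 0, 2 and 1 for the first 3. With no fold change limit they became 3 for FCS/LIF −E, 5 for FCS/LIF −E−N against −N, 2 for 2i/LIF −N and 4 for +E+N between the media. For the 2i/LIF interaction, 1 as reported, DESeq2 gave 2, no filter on low counts 2, limma with either pseudocount 0, and the libraries numbered 2 and 3 alone 0. For the FCS/LIF interaction, no filter gave 1. For the differences between the media in the responses to −E, −N and −E−N, 0, 0 and 1 as reported, no filter gave 2, 1 and 2, and DESeq2 gave 0, 1 and 2. The difference of Lifr in the response to −E−N, -0.14 as reported, was 0.55 and 0.66 by limma on log2(TPM + 1) and log2(TPM + 0.1). With 1 library left out, counts ran from 1 to 2 for FCS/LIF −E, 1 to 3 for FCS/LIF −E−N against −N, 0 to 2 against −E, 0 to 1 for the 2i/LIF interaction, 0 to 1 for the −E and −N differences and 1 to 2 for −E−N. In the cases that leave 1 library in a state, that library is assumed to vary like those of the other states. Of 138 member estimates, 35 changed sign in at least 1 setting, none of them over 0.27 in size. The cause of these changes was not tested.

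With the replicate number as a block (replicate block), 3 members were called in the 2i/LIF interaction (Il6st, Lifr and Pim1), and 1, 1 and 4 for the differences between the media in the responses to −E, −N and −E−N, Pim1 in each and Jak1, Junb and Pim3 in the last (adjusted p = 0.000144, 0.0086 and 0.00338 by edgeR). The labels do not say that a number marks a shared batch. Same-numbered libraries deviated together with correlations over 0.1 in 8 of 12 cases in FCS/LIF and 16 of 18 in 2i/LIF. Of the libraries, 8 of 8 and 11 of 12 correlated best with their own number. With 2 replicates per state in FCS/LIF, their deviations from the state mean are mirror images. Each FCS/LIF correlation is therefore counted for both numbers, and the 8 of 8 libraries are not separate observations. Over all genes the block moved the calls for FCS/LIF −N from 27 to 305 and for the 2i/LIF interaction from 44 to 324, where DESeq2 gave 264 and 303.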
